A study of Mus musculus with 8 samples.

Results

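The genes described here lie on mouse chromosome 9 on both sides of Rpl29, a gene for a protein of the large ribosomal subunit. Members were chosen by position: genes of the FPKM table that start from 1.43 Mb before to 3.57 Mb after the start of Rpl29 on mm10 (GRCm38), an interval of 5 Mb, without Rpl29, Uqcrc1, Dusp7 and genes whose names mark them as ribosomal, mitochondrial, proteasome, Rab, Slc25, zinc finger or initiation factor genes. The rule gave 143 of the 23761 genes listed, of which 74.1% are protein-coding and 37 are not, and it left out 7 genes of the interval by name. The interval was selected on differences between the genotypes in these same libraries, so the counts below describe it and are not a test of it.

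RNA was sequenced from bone marrow-derived macrophages (BMDMs) of 3-month-old mice, 4 of the LysM and 4 of the K2KO genotype, whose marrow had been cultured with medium from L929 fibroblasts. LysM mice have the genotype LysM Cre/Cre, with Cre recombinase driven by lysozyme M, a gene active in macrophages, neutrophils and their precursors. K2KO mice have the genotype LysM Cre/Cre KLF2 flox/flox, so both groups carry Cre, both are on a C57BL/6J background, and the columns of all 8 libraries are marked Veh with no agent named in the labels. The libraries are called LysM0 to LysM3 and K2KO0 to K2KO3 here, since the columns of the table give a genotype and a number but not a mouse. The samples are numbered differently in their titles, and no column is tied to a sample. A library here therefore need not be the sample of the same name. KLF2 is a zinc finger transcription factor that restrains inflammatory gene expression in myeloid cells.

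Expression is given as FPKM, the number of sequenced fragments of a gene divided by the length of its transcript in kilobases and scaled to the total mapped in its library. The summed FPKM were 497253 to 551608 in the LysM libraries and 448235 to 501965 in the K2KO libraries. Read counts were not used here and the depth behind a value is unknown. Steps among the lowest values put the relative depth roughly at 0.939 (K2KO2) to 1.47 (K2KO1) times that of LysM0. These 2 values rest on few genes, 112 of 2753 low genes for K2KO2 and 131 of 3019 for K2KO1, so they are uncertain. Klf2, the targeted gene, was at 44.1, 52.9, 64.7 and 72.8 FPKM in LysM0 to LysM3 and at 45.5, 41.6, 59.2 and 59.3 FPKM in K2KO0 to K2KO3. The groups overlapped, and the log2 fold change was -0.18 (standard error, SE, 0.17, adjusted p in limma = 0.460). Because the targeted gene did not separate the genotypes, directions below refer to the libraries labelled K2KO. Of 7 tested macrophage marker genes, 5 were not called, among them Cd68 at 1834 and 1779, Csf1r at 524 and 526 and Adgre1 at 433 and 440 mean FPKM in the LysM and K2KO libraries. Mertk, a receptor for dying cells, was called higher (14.25 and 18.3 mean FPKM; log2 fold change 0.36, adjusted p in limma 0.0285). Lyz2, the lysozyme M gene that drives Cre in both groups, was called lower (18.6 and 13.2 mean FPKM; -0.49, adjusted p in limma 0.0260).

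The interval is gene-dense and holds genes of unrelated function side by side. Among them are Alas1, whose product makes the first committed step of heme synthesis, Nprl2, a subunit of the GATOR1 complex that restrains mTORC1 when amino acids are scarce, Gpx1, the cytosolic glutathione peroxidase that removes hydrogen peroxide, and Tlr9, the endosomal receptor for unmethylated CpG DNA. Neighbouring genes can be arranged head to head with their start sites close together, and such neighbours can share promoter sequence.

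The genotypes were compared with limma on log2(FPKM + 0.1) values of the 10920 genes of the whole table that averaged at least 1 FPKM, with Benjamini-Hochberg adjustment over all of them. A gene was called where its adjusted p was under 0.05 and its log2 fold change was over 0.26 in size. For weakly expressed genes the added 0.1 pulls the fold change below the plain ratio. Of the 143 members, 74 were tested and 24 were called. That is 32.4% of the tested members, beside 18.4% of all tested genes. Called higher in the libraries labelled K2KO were 14 members (18.9%, beside 9.84% of all tested genes), and called lower were 10 (13.5%, beside 8.61%). The libraries of both genotypes did not overlap for 28 tested members (37.8%, beside 23.1%), among them 21 of the 24 called ones. The interval was chosen from this contrast, so nothing is read from these differences in share. The median log2 fold change of the tested members was 0.01, as it was for all tested genes. The count of 24 changed with which library was left out: it was 12 without LysM1, 15 without LysM2, 11 without LysM3, 14 without K2KO0, 14 without K2KO1 and 12 without K2KO2, but 27 without LysM0 and 26 without K2KO3. The share of all tested genes that was called went the same way.

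Calls were counted along the interval by megabase, beside the 18.4% of all tested genes. In the first megabase, from Nudt16 to Pik3r4, all 4 tested members were called (100%), 3 higher and 1 lower. In the next, from Wdr82 to Rbm15b, which holds Rpl29, 8 of 16 tested members were called, 6 higher and 2 lower. From Mapkapk3 to Fam212a 5 of 17 were called (29.4%), 1 higher and 4 lower. From Ip6k1 to Pfkfb4 5 of 28 were called (17.9%), 3 higher and 2 lower. In the last megabase, from Shisa5 to Map4, 2 of 9 were called (22.2%), 1 in each direction. Both directions thus occurred in every megabase. In the adjoining 5 Mb of the chromosome, 4 of 13 tested genes were called before the interval and 5 of 33 after it (30.8% and 15.2%).

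**Figure D1:**
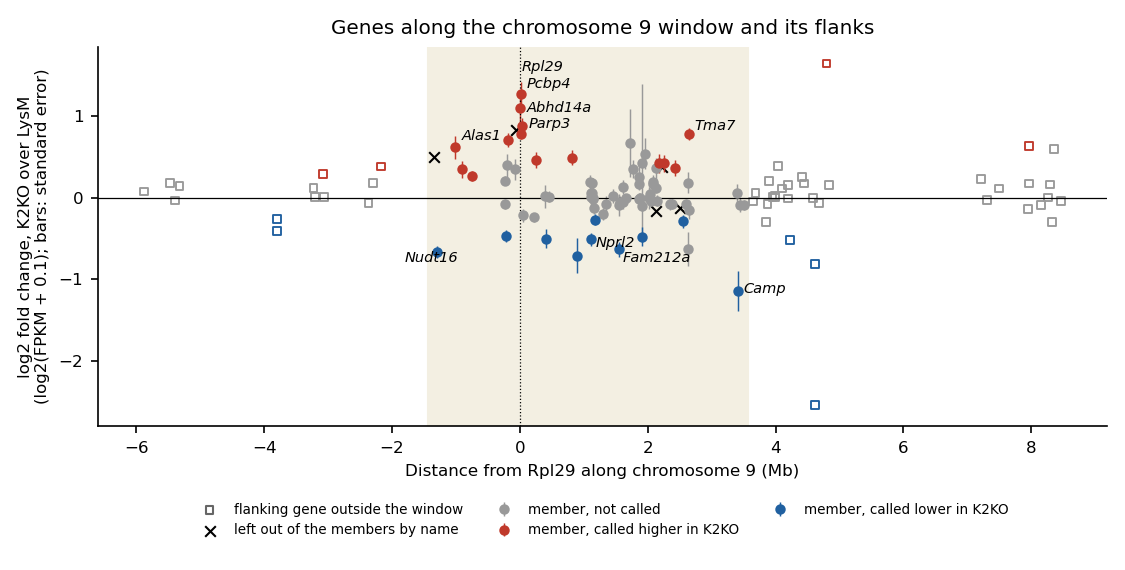
Log2 fold change (K2KO over LysM, log2(FPKM + 0.1) scale) of each tested gene against its distance from Rpl29 in Mb, with the interval shaded. Circles with standard error bars are members (red called higher, blue called lower, grey not called), open squares are flanking genes and crosses are genes left out by name, without Rpl29 itself, whose value of 10.74 lies above the axis. The highest members, Pcbp4 at 1.27 and Abhd14a at 1.10, stand beside Rpl29, and the lowest, Camp at -1.15, lies near the far end.

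Rpl29 itself and the other genes left out by name serve only as position marks. Rpl29 was listed between 0 and 0.253 FPKM in every LysM library and between 337 and 435 FPKM in every K2KO library, and it has near-identical copies elsewhere that its reads can come from. Dusp7, a phosphatase of ERK kinases just before it, had a log2 fold change of 0.83 (limma adjusted p = 0.00976). Uqcrc1, a core subunit of respiratory complex III, was not called (-0.13, limma adjusted p = 0.192). Mrpl3 (0.49) and Slc25a20 (0.38) were called higher. With Rpl29 and Dusp7, 4 of the 6 tested genes left out by name were called, all higher (66.7%, beside 9.84% of all tested genes). The interval was chosen around Rpl29 from this same contrast, so nothing is read from this share. At the edges of the interval, Nudt16 (-0.67) and Aste1 (0.62) were the first tested members inside the first edge, and Acad11 (0.18) and Dnajc13 (0.39) the last tested genes outside it. At the other edge, Cdc25a and Map4 inside stood at -0.09 each, and Dhx30 and Smarcc1 outside at -0.05 and 0.06.

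Just after Rpl29, a run of 4 neighbouring tested genes was higher in the libraries labelled K2KO. Abhd14a and Abhd14b, which encode alpha/beta hydrolase fold proteins, lie next to each other 8.48 and 15.9 kb beyond the end of Rpl29, measured to the nearest edge of each gene, and their start sites face each other. Abhd14a (chr9:106440051-106447678, minus strand) was at 2.25, 2.15, 2.32 and 2.31 FPKM in the LysM libraries and at 5.14, 3.24, 6.11 and 5.84 FPKM in the K2KO libraries. The groups did not overlap, and K2KO1 was the closest to the LysM libraries. Its log2 fold change was 1.10 (SE 0.18, adjusted p in limma = 0.00986). Abhd14b (chr9:106447459-106452923, plus strand) was at 6.77, 6.30, 6.47 and 6.42 FPKM against 11.6, 11.5, 11.0 and 10.7 FPKM. Here the libraries of each genotype lay close together and far from the other genotype, and the log2 fold change was 0.78 (SE 0.05, adjusted p in limma = 0.00012). The transcripts of both genes overlap on opposite strands, and the strand setting of the counting is not given in the sources used here, so reads could be shared between them.

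Pcbp4 and Parp3 followed. Pcbp4 (chr9:106453291-106464012, plus strand), which encodes a poly(C)-binding RNA-binding protein, was at 3.44, 2.63, 4.18 and 4.69 FPKM in the LysM libraries and at 9.53, 9.09, 8.56 and 8.62 FPKM in the K2KO libraries. All K2KO libraries were above all LysM libraries, and its log2 fold change, 1.27 (SE 0.15, adjusted p in limma = 0.0034), was the highest of the called members. Parp3 (chr9:106470322-106476949, minus strand), an ADP-ribosyltransferase that acts at DNA double-strand breaks, was at 3.95, 3.36, 3.41 and 3.88 FPKM against 7.80, 6.08, 6.63 and 6.84 FPKM. The groups again did not overlap (log2 fold change 0.89, SE 0.09, adjusted p in limma = 0.00143). Its head-to-head neighbour Rrp9, a U3 snoRNP protein of ribosomal RNA processing, went the other way without being called, at 12.2 ± 0.996 and 10.5 ± 0.858 FPKM (SD, n = 4 each; log2 fold change -0.22, limma adjusted p = 0.0800). Parp3 and Rrp9 overlap on opposite strands, so reads could be shared here too. Acy1, an aminoacylase that lies 1.41 kb after Rpl29 and is the nearest member to it, averaged 0.527 FPKM and was not tested. It ranged from 0.286 to 0.695 FPKM in the LysM libraries and from 0.451 to 0.745 FPKM in the K2KO libraries, which overlap.

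**Figure D2:**
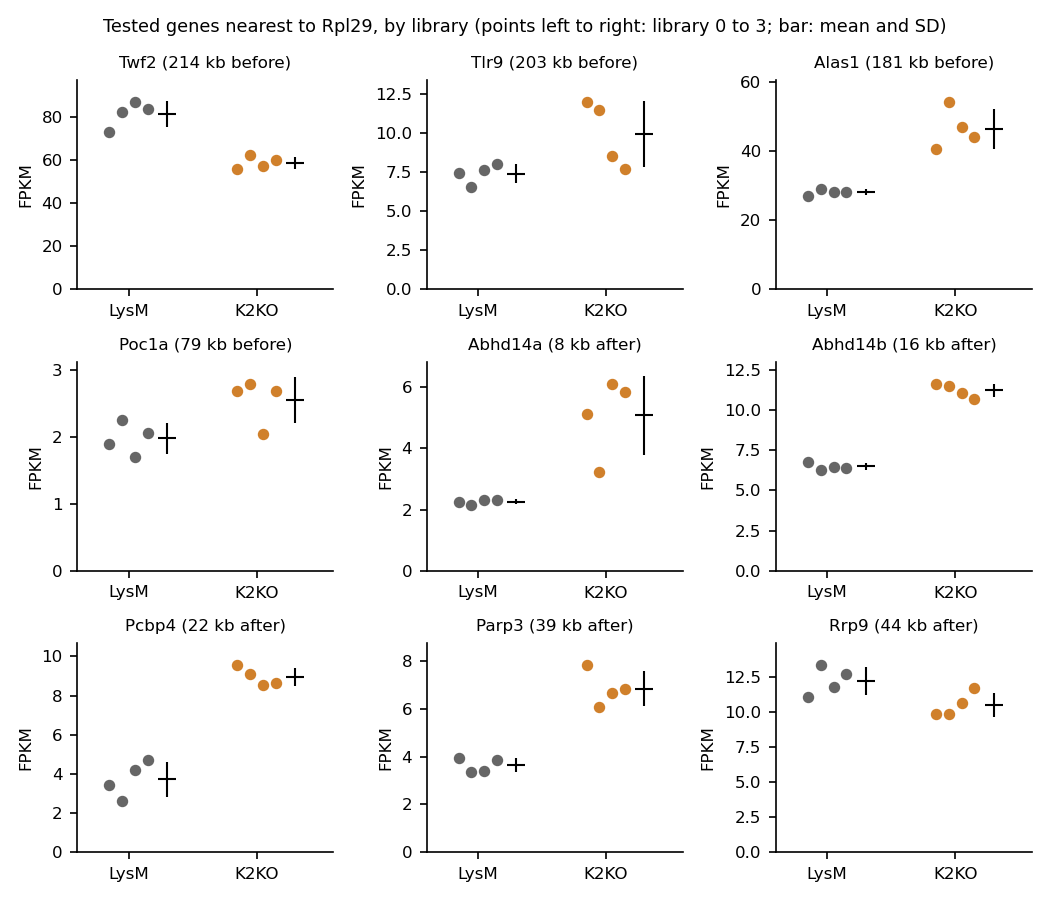
FPKM in each library (points, library 0 to 3 from left to right; grey LysM, orange K2KO) with the mean and SD of the 4 libraries (black) for 9 tested genes near Rpl29, with the distance from it in kb. Abhd14a, Abhd14b, Pcbp4, Parp3 and Alas1 are higher in every K2KO library than in every LysM library, Twf2 is lower in every one, and Tlr9, Poc1a and Rrp9 overlap.

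Before Rpl29, genes were called in both directions. Alas1 (chr9:106233455-106248654, minus strand) was at 27.0, 29.1, 28.2 and 28.1 FPKM in the LysM libraries and at 40.6, 54.1, 47.0 and 44.0 FPKM in the K2KO libraries. Every K2KO library was above every LysM library, and the log2 fold change was 0.71 (SE 0.09, adjusted p in limma = 0.00319). Poc1a, a centriole protein gene, was at 1.98 ± 0.232 and 2.55 ± 0.340 FPKM (SD, n = 4 each) and was not called (log2 fold change 0.35, limma adjusted p = 0.0813). It was called higher in limma with the replicate block (adjusted p = 0.0483), with the GC and length correction (0.46, adjusted p = 0.0448) and with both (adjusted p = 0.0429). Tlr9 was at 7.46, 6.57, 7.65 and 8.01 FPKM against 11.98, 11.5, 8.57 and 7.74 FPKM. K2KO0, K2KO1 and K2KO2 were above all LysM libraries while K2KO3 was within their range, and the gene was not called (log2 fold change 0.40, limma adjusted p = 0.0734), but was without K2KO3 (0.51, adjusted p = 0.0211). Twf2, a twinfilin that binds actin monomers, ranged from 72.8 to 86.7 FPKM in the LysM libraries and from 55.7 to 62.1 FPKM in the K2KO libraries, without overlap (log2 fold change -0.47, SE 0.07, adjusted p in limma = 0.00785). After correction for GC content and transcript length it was -0.29 (adjusted p in limma = 0.0448).

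The far side before Rpl29 held 4 tested members. Nudt16 (chr9:105128903-105131824, minus strand), a nudix hydrolase that clears inosine nucleotides, was at 12.8, 13.9, 14.6 and 15.1 FPKM in the LysM libraries and at 8.32, 8.56, 9.76 and 8.73 FPKM in the K2KO libraries. It was lower in every K2KO library (log2 fold change -0.67, SE 0.07, adjusted p in limma = 0.00197). Aste1, Atp2c1 and Pik3r4 were called higher. Atp2c1, the Golgi calcium and manganese pump, had a log2 fold change of 0.35 with overlapping libraries, and Pik3r4, the regulatory subunit of the class III phosphoinositide 3-kinase, one of 0.27. Of 10 alternative settings at the same fold threshold, 3 called Atp2c1 and 6 called Pik3r4, and quantile normalization called neither. Of the 8 fits without 1 library each, 1 called Atp2c1 and 2 called Pik3r4. Aste1 (0.62) lies across Atp2c1 on the opposite strand, so the values of this pair may not be separate.

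Across the interval, 9 of the 24 calls, those of Abhd14a, Abhd14b, Alas1, Fam212a, Nprl2, Nudt16, Parp3, Pcbp4 and Tma7, were also made under each of 10 alternative settings at the same fold threshold and without each of the 8 libraries in turn. Twf2 was also called without each library. The other 14 calls were each lost when some single library was left out, that of Mapkapk3 without LysM3, that of Rad54l2 without K2KO2, those of Aste1 and Camp without LysM1 or LysM3 (Aste1 also without K2KO1, Camp also without K2KO2), and each of the remaining 10 without any one of 5 or more of the libraries. Bases upstream of the RefSeq start site are shown for the genes among these that have at least 50 unbroken bases outside annotated exons within the 250 bases before that site (Nudt16, Parp3, Nprl2 and Fam212a), since they stand on both sides of Rpl29 and were called in both directions. The sequences are from RefSeq (GRCm38.p6), written 5′ to 3′ on the strand of the gene. They are at chr9:105131825-105132055 (minus strand, 231 bases) for Nudt16, chr9:106476950-106477199 (minus strand, 250 bases) for Parp3, chr9:107541959-107542034 (plus strand, 76 bases) for Nprl2 and chr9:107985917-107986166 (minus strand, 250 bases) for Fam212a. Capitals mark matches, on either strand, to CACCC, the core of sites bound by Krüppel-like factors, or CCGCCC, a GC box.
Nudt16: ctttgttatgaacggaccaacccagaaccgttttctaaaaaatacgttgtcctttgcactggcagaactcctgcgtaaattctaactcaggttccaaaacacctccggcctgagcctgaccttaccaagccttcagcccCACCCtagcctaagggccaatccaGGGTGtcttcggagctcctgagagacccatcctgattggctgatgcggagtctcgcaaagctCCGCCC
Parp3: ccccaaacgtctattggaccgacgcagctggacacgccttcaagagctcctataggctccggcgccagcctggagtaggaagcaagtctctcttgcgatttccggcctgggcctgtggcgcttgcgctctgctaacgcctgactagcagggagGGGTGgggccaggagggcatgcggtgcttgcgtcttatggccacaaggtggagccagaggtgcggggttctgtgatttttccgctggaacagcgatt
Nprl2: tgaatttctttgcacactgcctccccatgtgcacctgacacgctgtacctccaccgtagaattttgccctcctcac
Fam212a: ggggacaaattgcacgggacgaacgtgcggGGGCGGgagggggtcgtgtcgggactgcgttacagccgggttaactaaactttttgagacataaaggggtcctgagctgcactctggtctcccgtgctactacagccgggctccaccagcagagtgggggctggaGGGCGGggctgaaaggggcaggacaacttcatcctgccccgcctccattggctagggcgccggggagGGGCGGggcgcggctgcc
A further motif, TTCNNNGAA, the palindrome bound by STAT factors, was searched in the same way, and none of the 4 stretches holds it. Nudt16 has 2 CACCC matches and 1 CCGCCC match, Parp3 has 1 CACCC match, Fam212a has 3 CCGCCC matches, and the shorter stretch of Nprl2 holds neither. The Nprl2 stretch ends 174 bases before the start site, and the bases between are not shown. The stretches of Nprl2 and Parp3 lie within the loci of Cyb561d2 and Rrp9. No CACCC match overlaps a CCGCCC match in these stretches. Of the upstream windows of 27025 genes, 54.5% hold CACCC, 35.4% hold CCGCCC and 8.13% hold TTCNNNGAA in their 250 bases. Among the 63 tested members with an entry, the shares were 68.3%, 66.7% and 4.76%. Among the called members with an entry, CACCC was in 8 of 12 called higher and 5 of 7 called lower, CCGCCC in 5 of 12 (41.7%) and 3 of 7 (42.9%), and TTCNNNGAA in 1 of 12 and 0 of 7. A match describes the letters only, and binding was not measured.

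In the megabase from Mapkapk3 to Fam212a, most of the called genes were lower in the libraries labelled K2KO. Nprl2 (chr9:107542226-107545706, plus strand) was at 17.4, 17.7, 17.5 and 20.7 FPKM in the LysM libraries and at 12.6, 14.1, 11.6 and 13.0 FPKM in the K2KO libraries. The groups did not overlap (log2 fold change -0.51, SE 0.08, adjusted p in limma = 0.00954). Cyb561d2, which starts 33 bases from it on the other strand and encodes a cytochrome b561 family protein, was at 17.1 ± 2.04 and 17.1 ± 1.78 FPKM (SD, n = 4 each). Fam212a (chr9:107984223-107985879, minus strand), also named Inka1, an inhibitor of the kinase PAK4, was at 11.9, 12.8, 13.5 and 13.5 FPKM against 7.38, 7.81, 8.33 and 9.90 FPKM. All its K2KO libraries were below its LysM libraries (log2 fold change -0.63, SE 0.09, adjusted p in limma = 0.00765), and the change was -0.40 after correction for GC content and transcript length. Gnai2, an inhibitory G protein alpha subunit and one of the most abundant members, was at 551 to 572 FPKM and 439.6 to 508 FPKM (log2 fold change -0.27, limma adjusted p = 0.0266). Its call was lost in limma with quantile normalization (-0.08, adjusted p = 0.327), no filter on low values (-0.27, adjusted p = 0.0761), the GC and length correction (-0.13, adjusted p = 0.133) and upper-quartile scaling (-0.23, adjusted p = 0.0306, under the fold threshold). It was also lost when LysM1, LysM2, LysM3, K2KO0, K2KO1 or K2KO2 was left out, with adjusted p in limma of 0.0574 to 0.0863. Hemk1, a methyltransferase of translation release factors, was also called lower (-0.71, limma adjusted p = 0.0435), with LysM0 at 5.06 FPKM inside the range of the K2KO libraries. The Hemk1 call was lost with a lower or no filter, without an intensity trend and with the GC and length correction. It was made in 2 of the 8 fits without 1 library each.

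Gpx1 (chr9:108338903-108340343, plus strand) was the most abundant member. It was at 1709, 2185, 1573 and 2087 FPKM in the LysM libraries and at 1301, 1326, 1268 and 1489 FPKM in the K2KO libraries. The groups did not overlap, although LysM2 lay close to K2KO3, and the log2 fold change was -0.48 (SE 0.12, adjusted p in limma = 0.0247). This call was lost with quantile normalization (-0.20, adjusted p = 0.250) and after correction for GC content and transcript length (-0.27, adjusted p = 0.0809), both in limma. It was also lost with no filter on low values and without LysM1, LysM3, K2KO0, K2KO1 or K2KO2. Rhoa, a small GTPase of actin control whose locus adjoins that of Gpx1, was at 255.8 ± 7.58 and 255.1 ± 13.4 FPKM (SD, n = 4 each). Its log2 fold change was -0.01 (limma adjusted p = 0.957), but it was 0.18 with quantile normalization, 0.04 with upper-quartile scaling and -0.18 with the GC and length correction, and near-identical copies of it exist.

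Camp and Tma7 had the largest log2 fold changes among tested members of the last megabase. Camp (chr9:109847379-109849617, minus strand), the cathelicidin antimicrobial peptide of granulocytes and macrophages, was at 12.6, 14.9, 11.1 and 16.01 FPKM in the LysM libraries and at 4.04, 6.77, 4.99 and 9.78 FPKM in the K2KO libraries. The groups did not overlap, with K2KO3 the nearest to the LysM libraries (log2 fold change -1.15, SE 0.24, adjusted p in limma = 0.0178). Camp also belongs to a list of 7 neutrophil precursor genes, all tested, of which it was the one called. The summed level of that list was 186, 266.5, 231 and 315 FPKM in LysM0 to LysM3 and 175, 292, 227 and 306 FPKM in K2KO0 to K2KO3, led by S100a9 at 132 and 126.5 mean FPKM. In bulk RNA, fewer cells of a type and less RNA per cell cannot be told apart.

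Tma7 (chr9:109074568-109082587, minus strand), a translation machinery-associated protein, was at 22.6, 23.8, 26.1 and 21.5 FPKM in the LysM libraries and at 37.9, 42.0, 43.2 and 38.5 FPKM in the K2KO libraries. All K2KO libraries were above all LysM libraries (log2 fold change 0.78, SE 0.08, adjusted p in limma = 0.000912). A near-identical copy, Gm6916 on chromosome 7, averaged 3.61 FPKM in the LysM and 0.365 FPKM in the K2KO libraries, and reads may be split between them. Summed with the copy, Tma7 averaged 27.1 and 40.8 FPKM. Ccdc51, a mitochondrial membrane protein gene head to head with Tma7, was not called (-0.14, limma adjusted p = 0.391). Both loci overlap on opposite strands, so reads could be shared.

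Of the 6 pairs of protein-coding members that start head to head within 1000 bases of each other, 5 had both genes tested. Among all tested genes, 18.4% were called. Abhd14a and Abhd14b was the pair called together, both higher. In 3 pairs, Cyb561d2 with Nprl2, Parp3 with Rrp9 and Tma7 with Ccdc51, one gene was called and its partner was not. For Tcta and Rhoa neither was called. Fold changes had the same sign in 2 of the 5 pairs, but those of Cyb561d2, Tcta and Rhoa were smaller than their SE. With the GC and length correction Tcta (0.0813) and Rhoa (-0.18) had opposite signs, so this tally depends on the processing.

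Members were also grouped by function, with 18.4% of all tested genes called (9.84% higher, 8.61% lower) as the background of each count below. The 16 tested enzymes of metabolism and redox included calls in both directions, 3 higher (Alas1, Abhd14a, Abhd14b) and 4 lower (Nudt16, Gpx1, Hemk1 and Pfkfb4, a kinase and phosphatase that sets fructose-2,6-bisphosphate). The median log2 fold change of this list was -0.03, beside 0.01 for all tested genes. Pfkfb4 was called in 3 of the 10 alternative settings and in 1 of the 8 fits without 1 library each. Among 9 tested genes for GTPases, G proteins and actin, Prkar2a, a regulatory subunit of protein kinase A, was called higher (0.42) and Fam212a, Twf2 and Gnai2 lower, with a median of -0.07. The 9 tested genes of genome maintenance, chromatin and cell cycle had 3 calls, all higher (Parp3, Aste1 and Rad54l2, a SNF2-family helicase, 0.46), and a median of 0.21. The 10 tested genes of RNA binding and translation had 2 calls, Pcbp4 and Tma7, both higher, and a median of -0.01. Members of the last list that were not called stayed between -0.22 and 0.17.

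Among 9 tested genes of the lysosome, Golgi and nutrient sensing, Atp2c1 and Pik3r4 were called higher and Nprl2 and Manf lower. Manf, a protein of the endoplasmic reticulum that is secreted under stress, was at 65.8 ± 10.2 and 46.3 ± 4.37 FPKM (SD, n = 4 each; log2 fold change -0.50, limma adjusted p = 0.0237). Its locus overlaps that of Rbm15b on the same strand, so reads could be shared. Tex264, an endoplasmic reticulum receptor for autophagy, passed the p threshold but not the fold threshold (-0.24, limma adjusted p = 0.0189). It missed both in limma with quantile normalization (-0.10, adjusted p = 0.162) and after correction for GC content and transcript length (-0.02, adjusted p = 0.835). Of 6 tested genes of innate sensing and cytokine signalling, Mapkapk3, a kinase downstream of p38, was called higher (17.8 ± 2.31 and 24.9 ± 1.17 FPKM, SD, n = 4 each; 0.49, limma adjusted p = 0.0132) and Camp lower. Trex1, the exonuclease that removes cytosolic DNA, was at 100.5, 141, 144 and 174 FPKM against 99.0, 60.5, 94.9 and 108 FPKM, which overlap (-0.63, limma adjusted p = 0.0569). It was not called, but was called lower without LysM0 (adjusted p = 0.0268) and without K2KO3 (adjusted p = 0.0432), both in limma. The locus of Trex1 overlaps that of Atrip on the same strand, so reads could be shared. Shisa5, the most abundant gene of that list, was at 316.5 and 300.7 mean FPKM and was not called. Of 6 tested ubiquitin genes, Arih2, a RING-between-RING ligase with near-identical copies, was called higher (0.42, limma adjusted p = 0.0344). The call of Arih2 was lost with no filter, the replicate block and the GC and length correction, and was made in 2 of the 8 fits without 1 library each.

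Of 2 tested genes of transport and plasma membrane receptors, Slc26a6, an anion exchanger, was called higher (0.36, limma adjusted p = 0.0320). That call was lost with the replicate block, with or without the GC and length correction, with quantile normalization and with no filter. It was made in 2 of the 8 fits without 1 library each. Adhesion, guidance and matrix genes were mostly listed at low levels. Of 13 listed, 12 were under 1 FPKM in every library, and the one tested, Dag1, the dystroglycan gene, was not called (0.35, limma adjusted p = 0.0516). In limma it was called higher with the replicate block (adjusted p = 0.0257), with the block and the GC and length correction (adjusted p = 0.0473), with upper-quartile scaling (adjusted p = 0.0475), without LysM0 (adjusted p = 0.0395) and without K2KO3 (adjusted p = 0.0144).

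**Figure D3:**
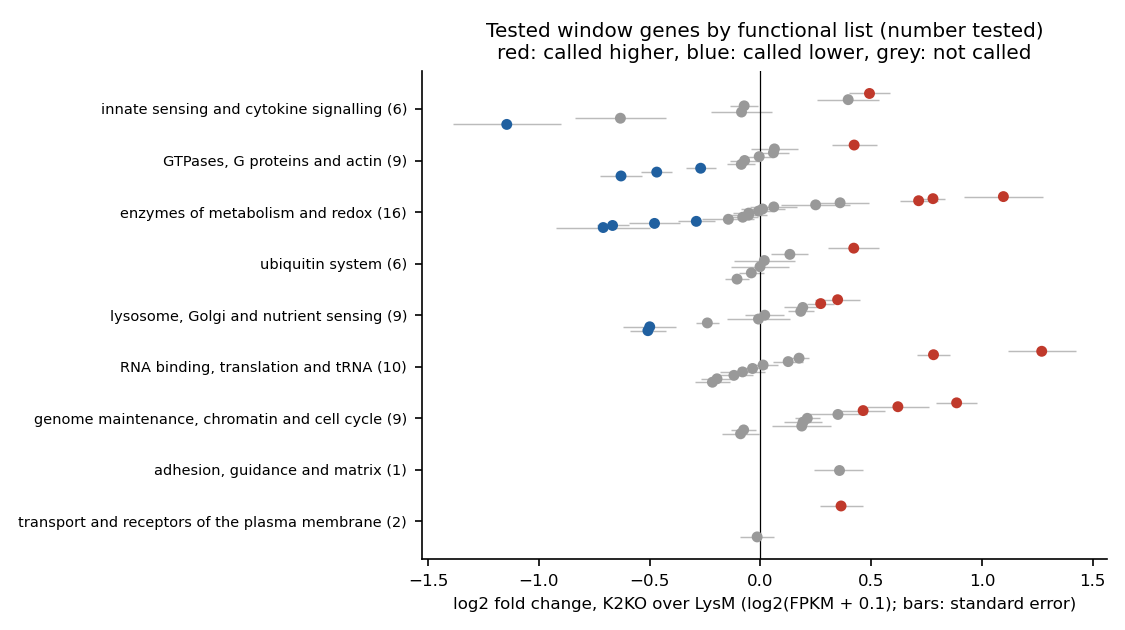
Log2 fold change (K2KO over LysM, log2(FPKM + 0.1) scale) with its standard error for each tested member, by functional list, with the number tested in parentheses. Red, blue and grey points are called higher, called lower and not called. Enzymes of metabolism and redox have 3 red and 4 blue points, and genome maintenance genes 3 red and no blue point.

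Genes elsewhere in the genome that work with members of the interval were followed as lists. Of 8 tested heme synthesis genes, Alas1, Cpox (0.42) and Fech (0.46) were called higher, none was called lower, and the list median was -0.11. Cpox and Fech encode coproporphyrinogen oxidase and ferrochelatase, late enzymes of the pathway. Of 10 tested genes of the GATOR complexes and their sensors, Nprl2 was the one called, while its partner subunits Nprl3 and Depdc5 had log2 fold changes of 0.01 and 0.06. Of 7 tested glutathione peroxidases and thioredoxin reductases, Gpx1 and Txnrd2 (-0.35) were called lower and Txnrd1 (0.53) higher. Of 9 tested genes of endosomal nucleic acid sensing, Tlr8 (1.39) and Tlr13 (0.33) were called higher and Unc93b1, the chaperone of these receptors, lower (-0.36). Of 7 tested suppressors of cytokine signalling, Socs4 (0.37) and Socs6 (0.35) were called higher. Among all tested genes, 18.4% were called. The genotypes overlapped for Tlr8 (adjusted p in limma = 0.0184) and Txnrd1 (adjusted p in limma = 0.0494). Partner genes outside the interval are given under the main setting only, without the GC and length correction. Transcript GC content was 38.5% (Socs4) to 49.7% (Txnrd1) for those called higher. For those called lower it was 55.05% (Txnrd2) and 57.3% (Unc93b1).

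The 69 members that were not tested include 35 protein-coding genes. With the filter lowered to a mean of 0.1 FPKM, 24 of them entered the fit. Cish and Zmynd10 entered through 1 group alone, since the mean of the other group was below that filter, so that they had to differ, and they are described without a test. Cish, an inhibitor of STAT5 signalling, was listed at 0, 0.113, 0 and 0.0490 FPKM in the LysM libraries and at 1.28, 0.938, 1.68 and 2.21 FPKM in the K2KO libraries. Its groups did not overlap. Zmynd10, needed for assembly of ciliary dynein arms, ranged from 0.186 to 0.357 FPKM among LysM and from 0 to 0.0718 FPKM among K2KO libraries. Under that filter, 7.18% of all genes were called higher and 5.56% lower, and 4930447F24Rik (log2 fold change 0.85) and 3000002C10Rik (1.04), the latter near-identical to Gapdh, were among those called higher. Glyctk, Gpr62 and Col6a6 also had libraries that did not overlap and were singled out after their values were seen. Glyctk was at 0.184 to 0.241 and 0.317 to 0.396 FPKM, Gpr62 at 0.106 to 0.257 and 0 to 0.0433 FPKM, and Col6a6 at 0.00485 to 0.0239 and 0 FPKM in the LysM and K2KO libraries. Gapdh, which every cell uses, was itself listed between 0 and 0.4999 FPKM, so values near 0 are given as listed and not taken to mean that a gene is silent.

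Fold change moved with GC content across the table. Over 10899 tested genes with a transcript sequence, Spearman's rho between GC content and log2 fold change was -0.401, and over the 74 tested members it was -0.284. These are descriptions across genes that share the same 8 libraries. The tested members had a median GC content of 54.1%, beside 49.8% for all tested genes. Members called higher had a median of 52.2%, beside 44.5% for all genes called higher, and members called lower one of 54.8%, beside 54.5%. After each library was corrected for GC content and transcript length, 21 members were called, 14 higher and 7 lower. That is 28.4% of the tested members, beside 9.12% of all tested genes. Without the correction the shares were 32.4% and 18.4%. The interval was chosen from this contrast, so nothing is read from these shares. Of the 24 original calls, 17 were kept. Pik3r4 (0.23, adjusted p in limma 0.0274) missed the fold threshold alone. The calls of Atp2c1 (0.14), Hemk1 (-0.61), Gnai2 (-0.13), Gpx1 (-0.27), Arih2 (0.38) and Pfkfb4 (-0.25) were lost with an adjusted p of 0.0687 or more in limma. The part of library composition in the lost calls was not tested further.

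**Figure D4:**
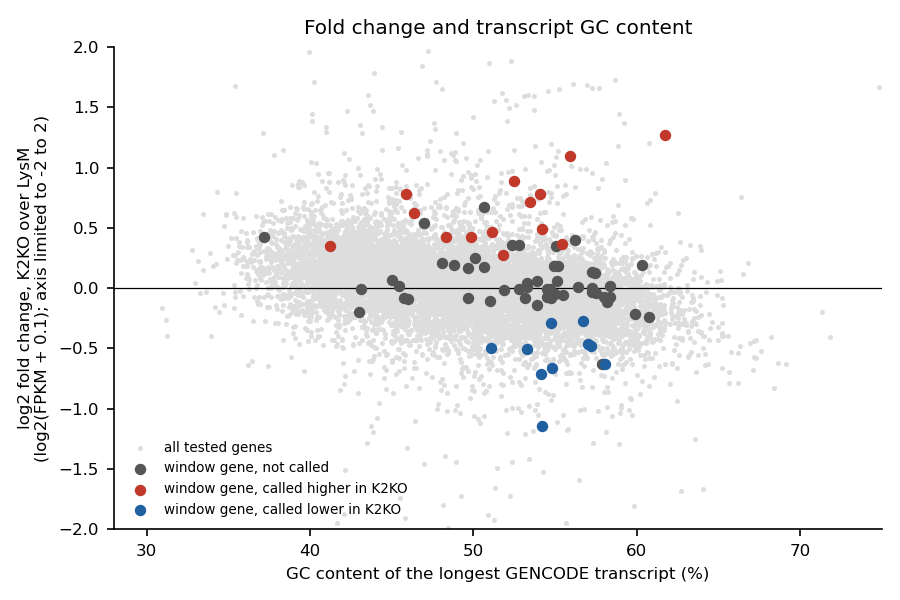
Log2 fold change (K2KO over LysM, log2(FPKM + 0.1) scale, axis truncated) against the GC content of the longest GENCODE transcript in percent. Pale points are all tested genes within the axis limits, and large points are members (red called higher, blue called lower, dark grey not called). The cloud slopes downward with GC content, and Pcbp4, the highest red point, lies at its GC-rich side.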

How the data were processed

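BMDM libraries of 4 mice per genotype were used. According to the methods, libraries were made with a stranded total RNA kit, reads were aligned to mm10 with TopHat2, and Cufflinks gave FPKM. The submitters' processing notes list STAR, Cufflinks and Cuffdiff instead, without versions, and the labels name another RNA kit than the methods. The FPKM deposited by the authors are in one table with a column per library and no pooling, and 0 per-sample columns were left out. Of 23761 rows, 23645 were matched to GENCODE release M21 (GRCm38) for position, transcript length and GC content.

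limma 3.58.1 in R 4.3.3 (eBayes with an intensity trend, no covariate) was run on log2(FPKM + 0.1) for genes with a mean of at least 1 FPKM. The script was tested on simulated data. Copies of at least 95% identity over at least 200 bases were found with BLAST 2.17.0. Promoters were from RefSeq, with 63 tested members matched.

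The members and gene lists were chosen with earlier results of these data known. Named are the called members of largest change whose libraries do not overlap, the 3 tested members nearest to Rpl29 on each side, those at the edges, called members of each list with up to 2 of its most abundant others, called partner genes, and the 3 most abundant members. The motifs and the 50-base minimum for printed sequence were also set with values known. Alternatives were other pseudocounts, filters, scalings, variance models, thresholds, window edges and members, a replicate block, correction for GC content and length (loess span 0.3), and each library left out.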

Additional observations from a re-analysis of the deposited data

Results flagged for a closer look

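Dixon's criterion was applied to 98 groups of 4 libraries, and 1 library stood apart in 6 of them. By chance about 1 in 20 groups, or 4.9 here, would meet it. In the K2KO libraries, Poc1a was at 2.05 FPKM in K2KO2, Mapkapk3 at 23.2 FPKM in K2KO1 and Ip6k1 at 27.4 FPKM in K2KO3, each below the other libraries. In the LysM libraries, Hemk1 was at 5.06 FPKM in LysM0, below the others, while Nprl2 at 20.7 FPKM in LysM3 and Prkar2a at 5.10 FPKM in LysM0 were above them.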

How the results depend on the processing

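The number of called members stayed within 1.5 times of 24 under other pseudocounts, filters, scalings, variance models, window edges and member sets. The genes behind that number changed with the filter. With the filter at 0.1 FPKM, 21 of the 24 calls were kept. The 25 members called there (25.5%, beside 12.7% of all tested genes) include Cish and Zmynd10, which had to differ. With no filter, 15 of the 24 calls were kept, and 5.13% of all tested genes were called. The number of called members was 3 (2 higher, 1 lower) with an absolute log2 fold change over 1 (4.05%, beside 1.01% of all tested genes). Leaving out each library in turn gave 11 to 27 called members, 7 to 15 higher and 4 to 12 lower, and medians of 0.0064 to 0.0435. With the GC and length correction and the replicate block together, 6 members were called lower and 17 in all (23.0%, beside 8.14% of all tested genes). Beside the calls lost with the correction alone, those of Prkar2a, Rad54l2, Slc26a6 and Twf2 (adjusted p in limma = 0.0584) were lost. The replicate block alone gave 22 calls (29.7%, beside 18.8% of all tested genes), 20 of them among the 24. With it Atp2c1, Arih2, Slc26a6 and Pfkfb4 were no longer called. Same-numbered libraries did not deviate together (correlations -0.07, 0.02, 0.07 and -0.06), so the numbers are not treated as pairs. The median log2 fold change of the members moved to 0.0571 with upper-quartile scaling, where that of all tested genes moved to 0.05 and 64.1% of all calls were higher in place of 53.3%, and to 0.0802 with the GC and length correction, with or without the block. Chosen after seeing the data, leaving out members from 200 kb before to 50 kb after Rpl29 gave 9 called higher of 67 tested. Of all tested genes, 9.84% were called higher. Adding the 7 genes left out by name, also chosen after seeing the data, gave 28 calls among 80 tested genes, 18 higher and 10 lower. Of all tested genes, 18.4% were called. The cause of these shifts was not tested.

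Of the members not called, Tmem115 was called higher (0.38) and Rbm5 lower (-0.39) with the GC and length correction, with or without the block. No called member changed sign. Of the 792 alternative values for the 44 named genes, 30 changed sign, all in genes that were not called. With quantile normalization these were Ip6k1 at 1.3e-06, Apeh at 0.0079, Rhoa at 0.18, Usp19 at 0.0171 and Shisa5 at 0.11. With upper-quartile scaling they were Apeh at 0.0360, Tcta at 0.0290, Rhoa at 0.0388 and Usp19 at 0.0031. With the GC and length correction, also with the block, they were Ppm1m at 0.11, Apeh at 0.0053, Tcta at 0.0813 and Shisa5 at 0.0443. Leaving out each library gave -0.0123 to 0.118 for Rassf1, -0.0816 to 0.00995 for Ip6k1, -0.0444 to 0.0244 for Apeh, -0.0726 to 0.0193 for Tcta and -0.0349 to 0.0217 for Rhoa. Without read counts the sampling error of a value cannot be stated, nor a limit of detection.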
